A study of Mus musculus with 6 samples.

Results

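Dorsal root ganglia (DRG) hold the cell bodies of the sensory neurons that carry touch, pain and itch signals to the spinal cord. The genes described here are the glutamate receptors and the auxiliary proteins that bind them, 38 members chosen by gene symbol from the 48401 gene rows of each library. They comprise 4 AMPA receptor subunits, 1 delta receptor subunit, 5 kainate receptor subunits, 7 NMDA receptor subunits and 7 metabotropic receptors. The auxiliary proteins are 6 transmembrane AMPA receptor regulatory proteins (TARPs, encoded by Cacng genes), 3 Shisa proteins, 2 Neto proteins, 2 cornichons and Gsg1l. All 38 symbols had a row in all 6 libraries.

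The libraries were made from total RNA of L4/5 DRG of C57BL/6J mice, males aged 8 weeks in every group. The mice had received siRNA intrathecally, a route that reaches the cerebrospinal fluid. The control siRNA, siNC, and siCLAP, which targets the lincRNA (long intergenic noncoding RNA) CLAP, had 3 libraries each. The labels used here state no siRNA sequence, dose or time after injection. CLAP has no row under that name, so its knockdown was not checked. Whether each library is 1 mouse or a pool is not stated, and the p-values therefore cover variation between these libraries alone, which may be technical.

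Glutamate is the fast transmitter that DRG neurons release in the spinal cord. AMPA, kainate and NMDA receptors are cation channels built from several subunits, whereas metabotropic receptors signal through G proteins. TARPs, cornichons, Shisa proteins and Gsg1l set the trafficking and gating of AMPA receptors, and Neto proteins do so for kainate receptors. In DRG neurons these receptors are best known at the central terminals, where they regulate transmitter release, so transcripts in the cell body may serve proteins located elsewhere.

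Each library had 21386768 to 46317735 expected counts, and the members together took 0.117% to 0.128% of them. The markers fitted ganglion tissue, since the 8 measured sensory neuron markers had mean levels of 127 TPM or more (a level scaled to gene length and to the library total). Markers of spinal cord neurons were near 0. Slc32a1 and Lbx1 were at 0 in every library and Gad1, Gad2 and Slc6a5 at no more than 0.0588 TPM, with only Isl2, which sensory neurons also express, above 2 TPM. Between the groups, the summed TPM of 9 leptomeningeal markers (from the membranes around cord and nerve roots) was 108, 27.0 and 119 in siNC libraries 1 to 3 against 21.9, 14.5 and 10.2 in siCLAP libraries 1 to 3. Values per library are given in this order throughout. Ptgds alone gave 90.3, 19.3 and 91.7 TPM of the leptomeningeal sum in siNC and 13.5, 6.67 and 3.63 TPM in siCLAP. Of the 6 tested leptomeningeal markers, 0 passed at an edgeR adjusted p under 0.05. Groups overlapped for Foxc2, Crabp2 and Ranbp3l. The summed TPM of 9 non-peptidergic nociceptor markers was 1442 to 1537 in siNC and 1177 to 1242 in siCLAP. That of 8 satellite glia markers was 641 to 667 in siNC and 698 to 718 in siCLAP. Among the latter, mean Fabp7 rose from 185 to 237 TPM and mean Ednrb from 58.2 to 78.7 TPM. The other satellite glia markers overlapped in TPM. Of these, Glul and Ptprz1 had lower siCLAP means (312 to 295 and 23.4 to 20.9 TPM). The 6 markers of C-fibre low-threshold mechanoreceptors summed to 402 to 443 TPM in siNC and 352 to 378 in siCLAP. The mean of Th went from 140 to 112 TPM and that of Gfra2, also in the non-peptidergic list, from 180 to 147 TPM. Groups overlapped for Fam19a4, Cdhr1, Zfp521 and Slc17a8. The 8 sensory neuron markers summed to 13009.1 to 13298.5 TPM in siNC and 13766.7 to 14068.6 in siCLAP. For the other marker lists the groups overlapped. In bulk tissue, fewer cells of a type and less RNA per cell cannot be told apart.

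**Figure D1:**
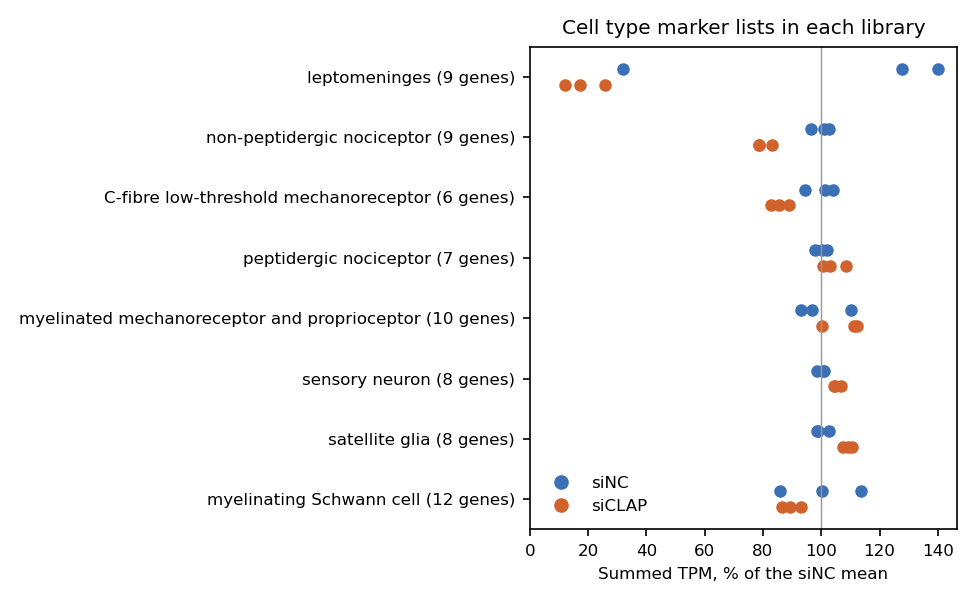
Summed TPM of 8 cell type marker lists in each library, as a percentage of the siNC mean of that list (points are libraries, blue siNC and orange siCLAP). The leptomeningeal list spans 12.1% to 140% (siNC-2 sits at 31.9%), whereas the non-peptidergic nociceptor list lies between 78.6% and 83.0% in siCLAP, below the siNC libraries.

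Members of one receptor family are similar in sequence, and no source used here says how reads matching several genes were assigned. Stretches of identical coding bases are therefore shown from GENCODE M21 transcripts (GRCm38, the build of mm10). Among 703 pairs of members, 3 shared a run of 50 bases or more, and all 3 were pairs of AMPA subunits. The longest runs that Grik1 shares with Grik2 and Grik4 with Grik5 are added because Grik1 and Grik4 are described in full. Capitals mark the run of 35 bases that coding transcripts of all 4 AMPA subunits hold.
Gria2 and Gria3: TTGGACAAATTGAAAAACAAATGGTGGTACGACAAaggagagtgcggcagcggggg
Gria3 and Gria4: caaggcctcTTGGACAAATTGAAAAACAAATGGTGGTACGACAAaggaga
Gria2 and Gria4: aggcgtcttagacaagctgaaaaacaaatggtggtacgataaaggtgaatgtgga
Grik1 and Grik2: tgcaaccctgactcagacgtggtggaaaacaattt
Grik4 and Grik5: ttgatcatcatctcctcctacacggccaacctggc

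The capitals lie at chr11:57309815-57309849 in Gria1 (plus strand), chr3:80691354-80691388 in Gria2 (minus), chrX:41654856-41654890 in Gria3 (plus) and chr9:4432807-4432841 in Gria4 (minus), each inside an exon of 115 bases. The third sequence lies in a second exon of 115 bases in Gria2 (chr3:80690425-80690479) and in Gria4 (chr9:4427051-4427105). AMPA subunit genes carry such a pair of alternatively spliced exons, known as flip and flop, which the deposited values per gene do not separate. The Grik1 and Grik2 run, of 35 bases, lies at chr16:87940588-87940622 and chr10:49244375-49244409, both on the minus strand. The Grik4 and Grik5 run, also of 35 bases and on the minus strand, lies at chr9:42543876-42543910 and chr7:25015926-25015960.

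Kainate receptor subunits were the most abundant channel subunits by length-scaled level, with summed TPM of 345 ± 11.7 (SD, n = 3) in siNC. Grik1, which encodes GluK1, the kainate subunit typical of small sensory neurons, had the highest level of all 38 members. It made up 71.4% ± 1.6 of the summed kainate TPM in siNC and 70.1% ± 0.729 in siCLAP. Grik5 and Grik4, whose products assemble with the low-affinity subunits into high-affinity receptors, followed at 47.3 ± 2.09 and 34.4 ± 1.09 TPM in siNC. Grik3 and Grik2 were lower, at 10.4 ± 0.426 and 6.26 ± 0.290 TPM.

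Among AMPA subunits Gria4 was the most abundant, at 46.7, 41.7 and 42.0 TPM in siNC and 47.1, 43.2 and 46.5 TPM in siCLAP. The groups overlapped. Gria4 held 58.7% ± 1.40 of the summed AMPA TPM in siNC and 60.5% ± 0.940 in siCLAP. Gria2, whose edited subunit makes AMPA receptors impermeable to calcium, stood at 11.4 ± 0.457 TPM in siNC, and the ratio of Gria4 to Gria2 TPM was 3.64 to 4.16 over the 6 libraries. Gria1 was at 13.5 ± 0.614 and Gria3 at 5.65 ± 0.529 TPM in siNC.

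NMDA receptors need the subunit encoded by Grin1, which was at 74.7, 71.8 and 69.6 TPM in siNC and 74.4, 67.4 and 75.0 TPM in siCLAP, with overlapping groups. The glutamate-binding partners were far lower. Grin2d stood at 3.85 ± 0.221 TPM in siNC, so Grin1 exceeded it 17.7-fold to 21.9-fold over the 6 libraries. Grin2c was at 0.519 ± 0.118 TPM. Grin2b had 4 to 10 counts per library. Grin2a had 1 count in siNC-2 and 0 in the other 5 libraries, a count that allows up to 3 per library (0.0652 to 0.140 CPM, counts scaled to library size). Grin3a, a glycine-binding subunit that lowers calcium permeability, was the second NMDA subunit at 12.9 ± 0.409 TPM in siNC. Values of Grin3b (2.39 ± 0.188 TPM) are uncertain, because the library kit does not mark strand and 32.1% of its exon bases lie opposite exons of Tmem259, at a mean of 110.2 TPM. The antisense gene Grin1os, at a mean of 25.7 TPM, covers 13.5% of the exon bases of Grin1.

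Metabotropic receptors comprised an abundant and a scarce set. The presynaptic receptors of group III, Grm7, Grm4 and Grm8, stood at 43.1 ± 0.713, 23.0 ± 1.39 and 13.3 ± 0.387 TPM in siNC and made up nearly all of the summed TPM of the 7 receptors. Grm6, the group III receptor known from the retina, had no count in siNC and 0.5 expected counts in 1 siCLAP library. Grm3 and Grm2, of group II, were at 0.835 ± 0.172 and 0.0751 ± 0.0690 TPM. Grm5, of group I, was at 0.339 ± 0.0555 TPM. Grid1, the delta subunit, which acts as a synaptic organiser, was at 7.03, 5.69 and 6.31 TPM in siNC and 6.33, 5.38 and 5.92 TPM in siCLAP.

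Cacng7, a type II TARP, was the second most abundant member, at 149, 146 and 141 TPM in siNC and 145, 130.4 and 158 TPM in siCLAP. It held 79.6% ± 0.176 of the summed TARP TPM in siNC. Its type II relative Cacng5 was at 18.4 ± 0.864 TPM, and Cacng2, which encodes stargazin, at 8.97 ± 0.621 TPM. Cacng4, Cacng8 and Cacng3 ranged from 5.73 ± 0.691 down to 1.61 ± 0.220 TPM. Cnih2, an AMPA receptor export factor, was at 28.5, 29.2 and 28.5 TPM in siNC and 24.6, 28.8 and 28.9 TPM in siCLAP, with overlapping groups. Its relative Cnih3 was at 4.17 ± 0.402 TPM in siNC.

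Of the remaining partners, the kainate receptor proteins Neto2 and Neto1 stood at 12.0 ± 0.0943 and 8.65 ± 1.30 TPM in siNC. Gsg1l, which slows the recovery of AMPA receptors from desensitisation, was at 5.37, 4.98 and 4.99 TPM in siNC and 4.49, 5.24 and 4.52 TPM in siCLAP. Shisa7, a partner of AMPA and GABA-A receptors, was at 3.87 ± 0.141 TPM, Shisa6 at 2.44 ± 0.280 TPM and Shisa9 at 0.415 ± 0.0677 TPM. In the order of siNC levels, Grik1, Cacng7 and Grin1 stood apart from their neighbours in every library. Of the next members, Gria4 (41.7 to 46.7 TPM) overlapped both Grik5 (45.3 to 49.5) and Grm7 (42.7 to 44.0), whereas Grik5 lay above Grm7 in every siNC library. The ranges also overlapped for Gria1, Grm8 and Grin3a (13.0 to 14.2, 12.9 to 13.6 and 12.5 to 13.4 TPM).

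**Figure D2:**
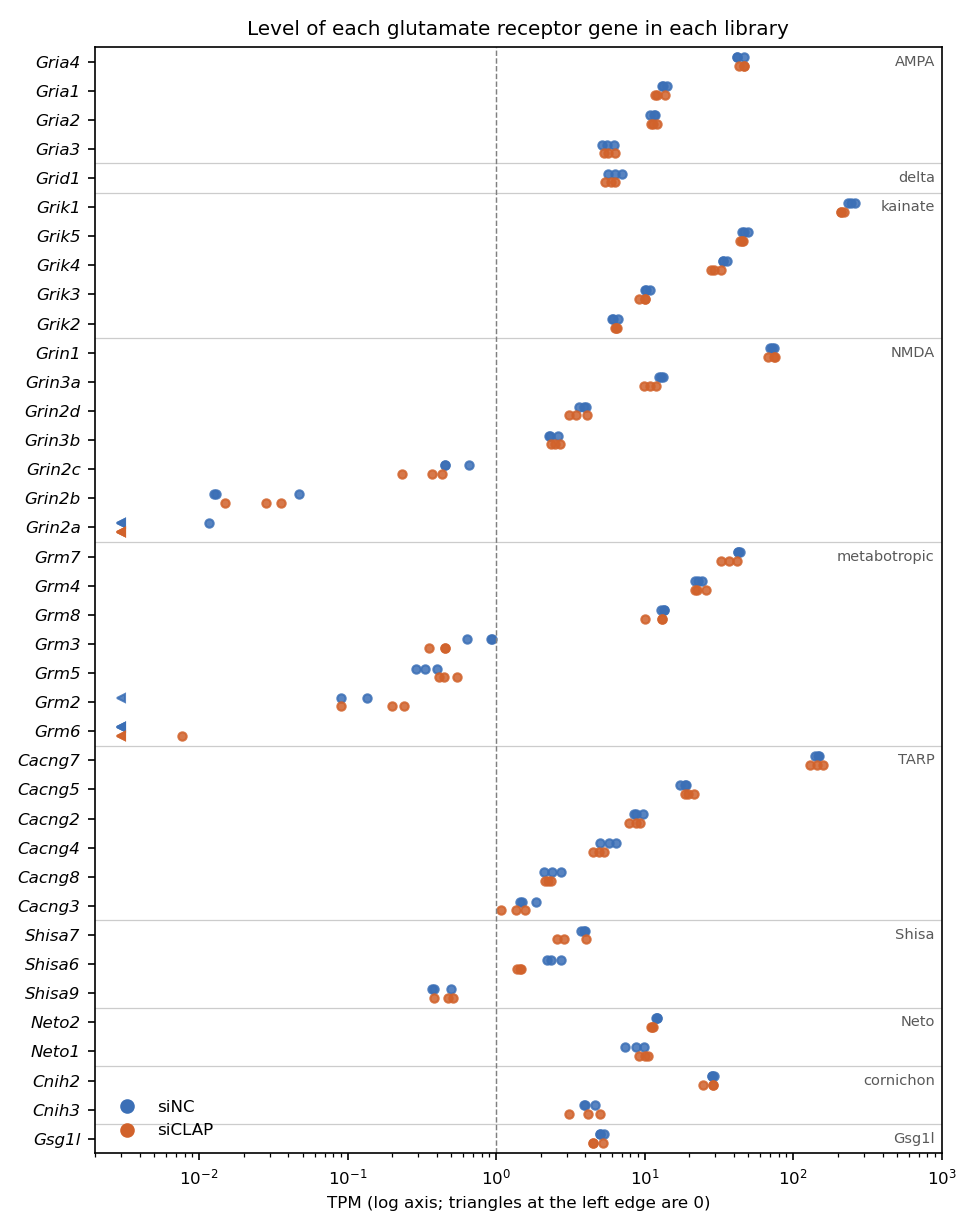
TPM of all 38 members in each of the 6 libraries on a log axis (blue siNC, orange siCLAP, triangles at the left edge for a value of 0, dashed line at 1 TPM), grouped by family and ordered by siNC level. Grik1 leads at 209 to 260.3 TPM, and Grin2a, Grin2b, Grm2 and Grm6 lie below 0.3 TPM.

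**Figure D3:**
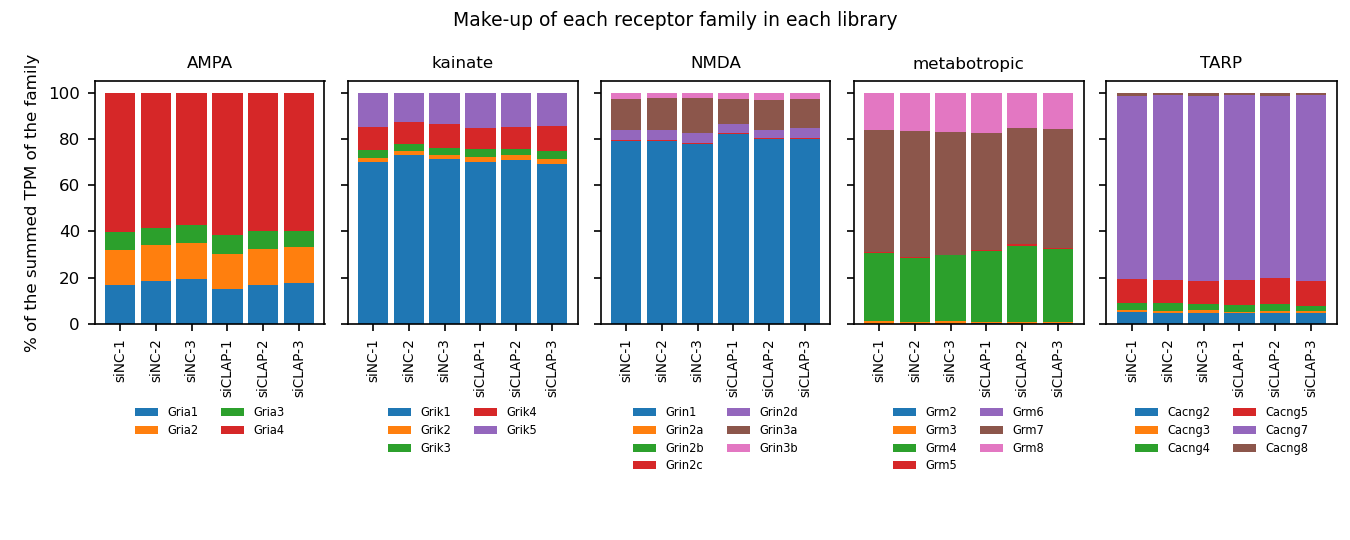
Share of each member in the summed TPM of its family, in percent, for 5 families (stacked bars, 1 bar per library). In siNC, the means were 71.4% for Grik1 in the kainate family, 58.7% for Gria4 in the AMPA family and 79.6% for Cacng7 in the TARP family.

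The comparison of siCLAP with siNC asked whether these transcripts differ when CLAP, linked to itch by the title of the series, is targeted. Of the 38 members, 30 had a mean of at least 1 TPM over the 6 libraries and entered edgeR's quasi-likelihood test, fitted on 19141 genes with Benjamini-Hochberg adjustment over all of them. Shisa6 fell, 0 members rose and 29 did not pass at an adjusted p under 0.05, a threshold that 0.293% of all tested genes passed (0.219% lower and 0.0731% higher in siCLAP). The 8 members under the filter were Grin2a, Grin2b, Grin2c, Grm2, Grm3, Grm5, Grm6 and Shisa9. Among the 30, 5 had an unadjusted p under 0.05, against 17.0% of all tested genes, a share close to that background. The 5 (Shisa6, Grin3a, Grik1, Grm7 and Grik4) all had lower estimates in siCLAP, a side on which 8.75% of all tested genes had such a p, against 8.22% on the higher side. The median log2 fold change was −0.07 over the 30 members and −0.00 over all tested genes, and 20 of the 30 estimates were negative, against 50.5% of all genes. Median log2 deviations of the members by library overlapped between the groups, with siCLAP-3 (0.058) above siNC-2 (0.013) and siNC-3 (0.014).

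Shisa6 lies at chr11:66211725-66525964 on the minus strand (GRCm38). Its protein binds AMPA receptors and slows their desensitisation. It was at 2.35, 2.21 and 2.75 TPM in siNC and at 1.45, 1.39 and 1.47 TPM in siCLAP. Every siCLAP library lay below every siNC library. The fit gave a 1.66-fold fall, with a log2 fold change of −0.73 ± 0.12 (SE, n = 3 per group, edgeR adjusted p = 0.0347), on 105 to 294 counts per library. The call ended without siNC-1, siNC-3, siCLAP-1 or siCLAP-2 (edgeR adjusted p = 0.0679, 0.133, 0.192 and 0.0702), and with limma on log2(TPM + 0.5) (adjusted p = 0.180).

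The summed TPM of leptomeningeal markers was also lower in siCLAP, and siNC-2 had the lowest sum of the siNC libraries. With siNC-2 alone set against the siCLAP libraries, Shisa6 stood at −0.62. That fit was chosen after seeing the data and assumes siNC-2 to vary as the siCLAP libraries do. It does not match the groups on these markers, since siNC-2 summed to 27.0 TPM and siCLAP to 10.2 to 21.9. The part of leptomeningeal, nociceptor or satellite glia markers in the Shisa6 difference was not tested. The other tested Shisa gene, Shisa7, was at 3.72, 3.92 and 3.98 TPM in siNC and 2.55, 2.87 and 4.01 TPM in siCLAP. siCLAP-3 lay above all siNC libraries and the other 2 lay below them. The difference did not pass (log2 fold change −0.29 ± 0.15, edgeR adjusted p = 0.348). Whether Shisa6 and Shisa7 differ in their change was not tested. Shisa9, under the filter, was at 0.372 to 0.493 TPM in siNC and 0.383 to 0.513 TPM in siCLAP.

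Grik1 (chr16:87895900-88290265, minus strand) was at 233, 260.3 and 246 TPM in siNC and 211, 218 and 209 TPM in siCLAP. The groups did not overlap, but the difference was small and did not pass (log2 fold change −0.19 ± 0.05, edgeR adjusted p = 0.106). DESeq2 on the same counts passed it (adjusted p = 0.0159), as did edgeR without a filter on low values (adjusted p = 0.0273). Both fits passed more genes than the main fit, DESeq2 239 higher and 369 lower of 19136, and the unfiltered fit 281 and 545 of 31245. Grik4 (chr9:42518135-42944493, minus strand) was at 33.7, 33.9 and 35.7 TPM in siNC and 27.8, 29.3 and 32.5 TPM in siCLAP, again without overlap. It did not pass (log2 fold change −0.19 ± 0.06, edgeR adjusted p = 0.157), except without siCLAP-3, its highest siCLAP library (0.0480).

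The other kainate subunits stood closer to 0, with Grik5 at −0.06 ± 0.05, Grik3 at −0.07 ± 0.06 and Grik2 at 0.04 ± 0.08 on the log2 scale. The summed kainate TPM was 333, 356 and 345 in siNC and 301, 309 and 302 in siCLAP, a difference made mostly of Grik1. Non-peptidergic nociceptor markers were lower in the same siCLAP libraries, at 78.6%, 78.7% and 83.0% of the siNC mean, with 4 of the 9 (Mrgprd, Scn11a, Plxnc1 and Gfra2) past the test. Their part in the Grik1 and Grik4 values was not tested. Of the kainate receptor partners, Neto2 was at 11.9, 12.1 and 12.0 TPM in siNC and 11.2, 11.0 and 11.4 TPM in siCLAP, without overlap (log2 fold change −0.08 ± 0.06, edgeR adjusted p = 0.470). Neto1 had the highest positive estimate of the members, 0.23 ± 0.11 (edgeR adjusted p = 0.324), with overlapping groups of 7.32 to 9.92 and 9.12 to 10.6 TPM.

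Grin3a (chr4:49661611-49845744, minus strand) was at 12.9, 12.5 and 13.4 TPM in siNC and 9.90, 10.8 and 12.0 TPM in siCLAP. All siCLAP libraries were below all siNC libraries, and siCLAP-3 was nearest to them. The log2 fold change was −0.23 ± 0.07 (edgeR adjusted p = 0.144), which passed without siCLAP-3 (0.0479). Grin1 was level, at 0.02 ± 0.05, and turned to between −0.00 and −0.01 when siCLAP-1, siCLAP-3 or siNC-3 was left out. Grin2d and Grin3b stood at −0.11 ± 0.12 and 0.08 ± 0.13, with overlapping groups.

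Grm7 (chr6:110645581-111567230, plus strand) was at 44.0, 42.7 and 42.7 TPM in siNC and 37.0, 32.8 and 42.1 TPM in siCLAP. siCLAP-3 almost reached the siNC level and siCLAP-2 was lowest. The log2 fold change of −0.19 ± 0.08 did not pass (edgeR adjusted p = 0.232). The part of cell type markers in the Grm7 and Grin3a values was not tested. Grm4 and Grm8 stood at 0.04 ± 0.07 and −0.12 ± 0.10, with siCLAP-2 again the lowest library for Grm8. The share of Grm7 in the summed metabotropic TPM was 52.7% to 54.5% in siNC and 50.1% to 51.1% in siCLAP, and that of Grm4 27.7% to 29.4% and 30.7% to 33.1%.

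The scarce members gave little precision. Grm3, a receptor for glutamate and for the peptide NAAG, was at 0.929, 0.637 and 0.940 TPM in siNC and 0.450, 0.351 and 0.450 TPM in siCLAP, on 12.5 to 44 expected counts. Its siCLAP values lay below all siNC values. It was under the filter of the test. With the filter lowered to a mean of 0.1 TPM it stood at −0.95 ± 0.26 (edgeR adjusted p = 0.105, where 0.521% of 25930 genes passed, 14.3% had an unadjusted p under 0.05 and 9.45% had siCLAP below siNC without overlap). With no filter the adjusted p was 0.0459, in a fit that passed 826 genes. Grin2c was also lower without overlap of TPM (0.450, 0.655 and 0.452 in siNC against 0.372, 0.233 and 0.433 in siCLAP), and Grm5 higher (0.399, 0.330 and 0.289 against 0.443, 0.542 and 0.415). At the lowered filter Grin2c stood at −0.56 ± 0.27 and Grm5 at 0.44 ± 0.20 (edgeR adjusted p = 0.371 and 0.344). Grm2 had 0 to 10 counts per library and showed no difference detectable at this depth.

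The AMPA subunits and most of their partners did not differ beyond the spread between libraries. Gria4, Gria3, Gria2 and Gria1 stood at 0.08 ± 0.06, 0.06 ± 0.10, 0.02 ± 0.06 and −0.09 ± 0.07 on the log2 scale. Taken as 2 SE on either side, the data allow changes between −0.03 and 0.20 for Gria4 and between −0.10 and 0.14 for Gria2. Cacng7 stood at 0.01 ± 0.07, a sign that turned in 6 of 18 alternatives. Cacng5 was highest among the TARPs, at 0.13 ± 0.07 (edgeR adjusted p = 0.352), and its siCLAP libraries lay above the siNC libraries in CPM but not in TPM. Cacng2, Cacng4, Cacng3 and Cacng8 stood between −0.04 and −0.25. Cnih2, Cnih3, Gsg1l and Grid1 had estimates of −0.06 ± 0.08, −0.01 ± 0.17, −0.10 ± 0.10 and −0.09 ± 0.09. Over all families, groups did not overlap in CPM for 7 of the 30 tested members, a share close to the 21.5% of all tested genes. Of the 7, 6 were below siNC, against 10.7% of all tested genes, and Cacng5 was above, against 10.8%.

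**Figure D4:**
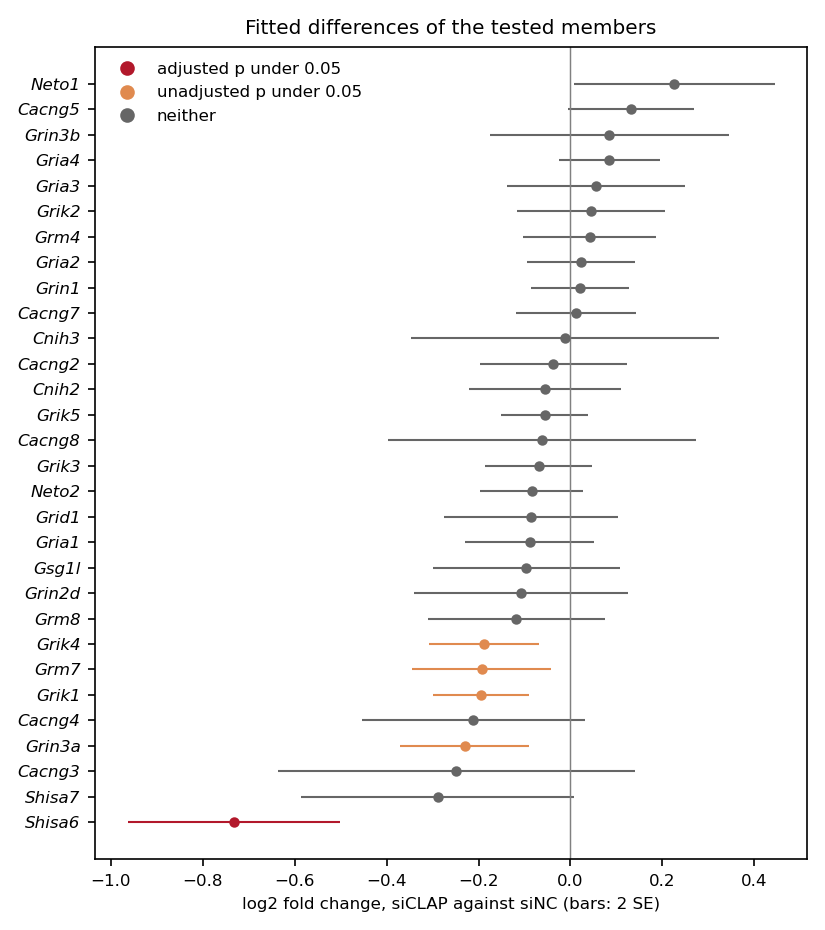
Fitted log2 fold change of siCLAP against siNC for the 30 tested members, with bars of 2 SE on either side (red, adjusted p under 0.05; orange, only the unadjusted p under 0.05; grey, neither). Shisa6 stands apart at −0.73, and the other 29 lie between −0.29 and 0.23.

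The genes that anchor, traffic and feed these receptors were taken from 3 lists. In the list of receptor scaffolds and trafficking, 1 of 34 tested genes rose and 1 fell, against 0.293% of all tested genes in either direction. Camk2a, the calcium-dependent kinase that phosphorylates AMPA and NMDA receptor subunits, fell from 154, 163 and 152 TPM in siNC to 122, 126 and 127 TPM in siCLAP. Its groups were well apart (log2 fold change −0.31 ± 0.05, edgeR adjusted p = 0.0282). Nsg1, an endosomal protein that recycles AMPA receptors, rose from 91.0, 87.5 and 85.7 TPM to 118, 106 and 115 TPM (log2 fold change 0.38 ± 0.05, edgeR adjusted p = 0.0265). Both calls ended without siNC-3 (edgeR adjusted p = 0.109 and 0.121) or siCLAP-1 (0.192 for each), and that of Camk2a also without siNC-1 (0.0501) or siCLAP-2 (0.0505). Neither passed limma on log2(TPM + 0.5) (adjusted p = 0.148 and 0.157). The part of nociceptor or other cell type markers in the Camk2a and Nsg1 differences was not tested. Camk2b, Camk2d and Camk2g, the sister kinases of Camk2a, stood at 0.01 ± 0.05, 0.03 ± 0.04 and 0.05 ± 0.04. Of the remaining 32 scaffold genes, which did not pass, Homer2, a scaffold of group I metabotropic receptors, stood at −0.17 ± 0.05, and Dlg4, which encodes the postsynaptic scaffold PSD-95, at −0.01 ± 0.05.

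In the list of glutamate release, uptake and metabolism, 0 of 17 tested genes passed edgeR's test, 1 (Slc17a7) passed DESeq2 and 5 had an unadjusted p under 0.05, against 17.0% of all tested genes. Slc17a7, the vesicular glutamate transporter VGLUT1 of large myelinated afferents, was at 200.5, 184 and 165 TPM in siNC and 235, 213 and 210.2 TPM in siCLAP. Its groups did not overlap (log2 fold change 0.28 ± 0.07, edgeR adjusted p = 0.0929). It passed in DESeq2 (adjusted p = 0.00450) and in edgeR without a filter on low values (adjusted p = 0.00390). Both fits passed more genes than the main fit. DESeq2 passed 239 higher and 369 lower of 19136 genes, and the unfiltered fit 281 and 545 of 31245. Slc17a6, the transporter VGLUT2 of most DRG neurons, stood at −0.12 ± 0.05 (edgeR adjusted p = 0.253). The ratio of Slc17a7 to Slc17a6 TPM was 1.26, 1.08 and 0.989 in siNC and 1.62, 1.45 and 1.32 in siCLAP, so the groups did not overlap. The summed TPM of 10 markers of myelinated mechanoreceptors and proprioceptors was 4538 to 5363 in siNC and 4890 to 5468 in siCLAP, with a median log2 fold change of 0.12 over the 10. Of these, 1 passed the test, against 0.293% of all tested genes. Pvalb, a calcium-binding protein of proprioceptors, rose from 121, 122 and 119 TPM to 172, 165 and 151 TPM (log2 fold change 0.45, edgeR adjusted p = 0.0215). Without overlap, Whrn was also higher (log2 fold change 0.24) and Ntrk2 lower (−0.13). The groups of the other markers overlapped, with Nefh, Spp1 and Runx3 at 0.21 to 0.33. Nefm, Ntrk3, Calb1 and Cntnap2 stood between −0.07 and 0.03. The part of these markers in the Slc17a7 values was not tested. Got1, an aspartate aminotransferase, stood at 0.17 ± 0.05.

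In the list of other receptor partners, 0 of 20 tested genes passed edgeR's test, 1 (Sacm1l) passed DESeq2 (adjusted p = 0.0413) and 5 had an unadjusted p under 0.05, against 17.0% of all tested genes. The smallest p was that of Sacm1l, a phosphatase found in AMPA receptor complexes, at 0.17 ± 0.04 (edgeR adjusted p = 0.109). It was followed by Olfm3, an extracellular olfactomedin, at 0.32 ± 0.10, and by Cnih1, the broadly expressed cornichon, at 0.19 ± 0.07. DESeq2 passed 2 members, Shisa6 and Grik1, where it passed 608 genes in all.

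**Figure D5:**
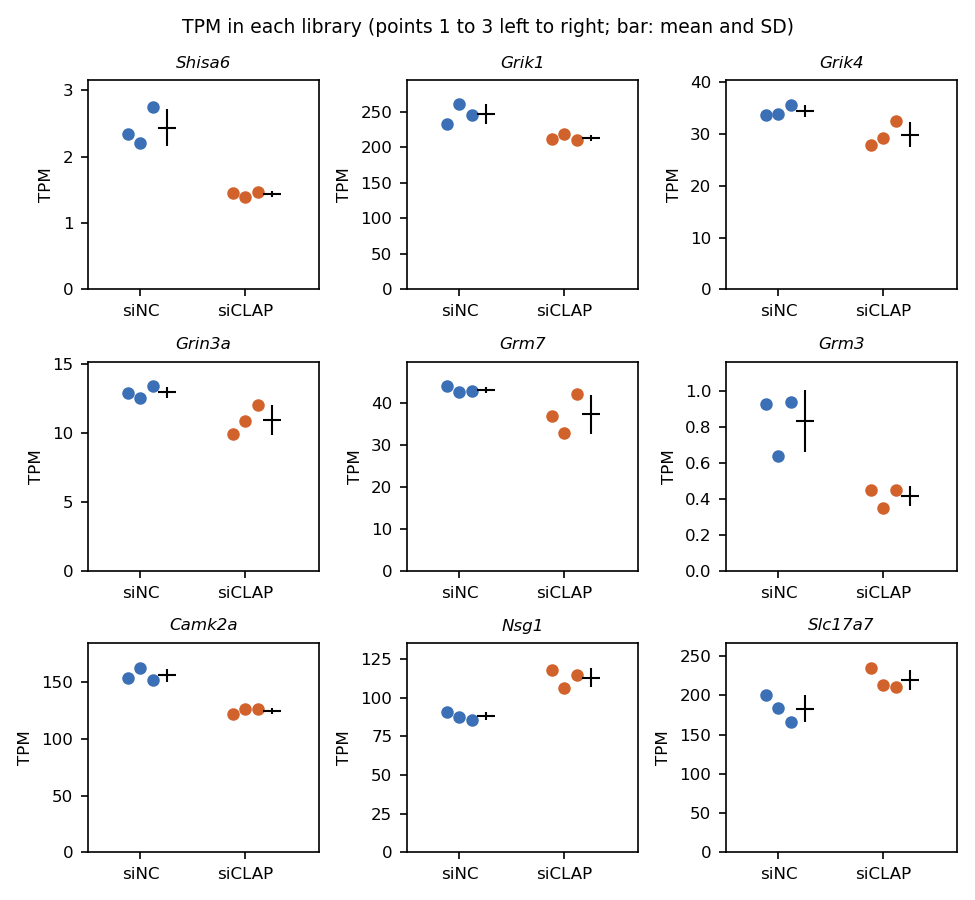
TPM in each library for 6 members (Shisa6, Grik1, Grik4, Grin3a, Grm7, Grm3) and 3 genes of the pathway lists (Camk2a, Nsg1, Slc17a7); points are libraries 1 to 3 of each group and the black mark is the mean with the SD. In each panel the siNC and siCLAP libraries do not overlap, which follows in part from choosing these genes by their values. Of all tested genes, 21.5% did not overlap in CPM. Relative to the level of the gene, siCLAP-3 of Grm7, at 42.1 TPM, comes nearest to its siNC libraries.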

How the data were processed

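Gene values of 6 bulk RNA-seq libraries of L4/5 DRG (3 siNC, 3 siCLAP) were used. The submitters' processing notes name FastQC 0.11.8, HISAT2 2.1.0, featureCounts 1.6.2 and mm10. The deposited files give TPM and an expected count per gene, of which 66.5% of the counts were whole (tolerance 1e-06). How shared reads were divided is not given in the sources used here, and the kit does not mark strand, so overlapping antisense genes cannot be told apart. Each library held 21386768 to 46317735 counts.

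Counts were rounded and fitted with edgeR 4.0.16 (R 4.3.3; TMM, quasi-likelihood test, all 6 libraries, no covariate) on 19141 genes with a mean of at least 1 TPM, with Benjamini-Hochberg adjustment and a threshold of 0.05. SE is the absolute log2 fold change divided by the root of F. An exact permutation test of 3 against 3 cannot go below p = 0.1, so none is given. A floor of 3 counts was used for values of 0. Alternatives used DESeq2 1.42.0, limma 3.58.1, other filters and fewer libraries.

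The members, gene lists and tests were chosen with earlier results of these data known. Values in every library are given for members with an unadjusted p under 0.05 and for the most abundant member of each family. From each pathway list the genes that passed are given, or otherwise the 3 with the smallest p, of which 1 is not reported here. Grm3, Grin2c, Grm5, Neto1, Slc17a6, Homer2, Dlg4 and the Camk2a relatives were added after their values were seen.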

Additional observations from a re-analysis of the deposited data

How the results depend on the processing

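Relative to 56 genes and 1 member passing in edgeR, DESeq2 passed 608 genes and 2 members (Grik1 and Shisa6). No filter on low values passed 826 genes and 3 members (Grik1, Grm3 and Shisa6), and 9 members then had an unadjusted p under 0.05, against 5. A filter of 0.1 TPM passed 135 genes, and one of 5 TPM passed 118 genes and 0 members, since Shisa6 lies under it. limma on log2(TPM + 0.5), log2(TPM + 0.1) and log2(TPM + 1) passed 0 genes and 0 members each, with 3028, 3017 and 3040 genes at an unadjusted p under 0.05. Leaving out 1 library gave 0 to 340 genes and 0 to 3 members. The lowest count of genes came without siCLAP-1 (0, with 1960 at an unadjusted p under 0.05), followed by 4 without siNC-3, and the highest without siCLAP-3. Without siNC-3 and siCLAP-2 together, 13 genes and 0 members passed, and 3 members had an unadjusted p under 0.05. With siNC-2 alone against siCLAP, a fit added after seeing the data, 13 genes and 0 members passed. The cause of these changes was not tested beyond the fewer libraries or genes that each fit holds.

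The member median was negative in all 18 alternatives, from −0.09 to −0.02. Shisa6 was lower in each of its 17, from −0.79 to −0.49, with adjusted p from 0.000401 to 0.300, and lost its call in 9. Among the named genes, signs turned for 4 members with estimates near 0. Cacng7 stood at −0.0081 in each limma fit on TPM, −0.011 without siNC-3, −0.055 without siCLAP-3 and −0.016 with siNC-2 alone, and leaving out 1 library took it from −0.055 to 0.082. Grin1 stood at −0.0048 without siNC-3, −0.0069 without siCLAP-1 and −0.0038 without siCLAP-3, with 0.070 as its highest value. Cnih2 ranged from −0.096 to 0.016 (without siCLAP-1) over the left-out libraries, and Grid1 stood at 0.049 with siNC-2 alone. Their cause was not tested.

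The labels do not say whether the replicate numbers pair the libraries. Same-numbered libraries had correlations of deviations of 0.0656, 0.00766 and −0.0443, which cannot settle it with 3 libraries per group. With the replicate number as a block, 203 genes and 1 member passed, and Slc17a7, which did not pass without the block, passed (adjusted p = 0.0349). Depth limits the 8 members under the filter most, because 3 counts correspond to 0.0652 to 0.140 CPM.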

Other observations

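Many of these receptor genes are long. Of the 30 tested members, 17 span at least 100 kb in GENCODE M21, with a median log2 fold change of −0.09, against −0.07 over all 30. Over the 2051 tested protein-coding genes of that span the median was −0.03, and over all 13435 tested protein-coding genes it was 0.00. Gene length was not a term in any fit.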
